A study of Mus musculus with 13 samples.

Results

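Synaptic vesicle release machinery was described in single excitatory neurons picked from the mouse claustrum, as a set of 43 genes out of 23427 in the deposited tables. The set was a list of gene names, and it and the split of cells by Synpr used below were chosen with earlier results of these data known. All 43 were listed for the projection mice, while Syt2 was not listed for the blindly sampled mouse. A cell was used if Snap25 and Slc17a7 were each counted in it, which left 1011 of 1112 picked cells, so Snap25, a member, also helped to choose the cells. The cells came from 4 male C57BL/6 mice on 13 plates. In mouse B, labelled as wild type (WT), 238 cells were picked blind to label after rAAV2-retro-CAG-GFP in the anterior cingulate cortex had served to find the claustrum. In mice P1, P2 and P3, green retrobeads in the lateral entorhinal cortex (LEC) and red retrobeads in the retrosplenial cortex (RSC) marked cells by target. This gave 247 RSC cells, 286 LEC cells and, with those of mouse B, 478 cells without a target label. The latter, blindly selected in the paper, are called unlabelled here, and those of mouse B may include cells with GFP. All 4 mice thus carried a tracer, and no untraced mouse was among them.

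A neuron releases transmitter when a vesicle docked at the active zone fuses with the membrane. Vesicle and membrane SNARE proteins (synaptobrevin, syntaxin and SNAP-25) zip together to drive fusion, synaptotagmins sense calcium, complexins clamp and promote the fusion step, and Munc13, RIM and CAPS proteins dock and prime vesicles. Synapsins hold the reserve pool, Rab3 proteins and SV2 are carried on the vesicle, Bassoon and Piccolo are scaffolds of the active zone, and NSF with SNAP proteins takes spent SNARE complexes apart. Most of these proteins exist as several paralogs, and neurons differ in which paralog they use.

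The pairs of paralogs whose balance differed most between the groups below were CAPS (Cadps and Cadps2) and synapsin (Syn1 and Syn2), and the 250 bases before the start of each are shown for that reason, 5′ to 3′ on the strand of the gene, from the RefSeq table of build GRCm38.p6. That table held 31 of the 43 members. The expression files were labelled with build NCBIM37, so no coordinate of theirs is mixed with these. Capitals mark each match, on either strand, to any of several short promoter motifs. The GC box, bound by Sp1 and its relatives, was searched as GGGCGG. The CAAT box, bound by NF-Y, was searched as CCAAT. The TATA box, found near the start of some genes, was searched as TATAAA. The cyclic AMP response element (CRE), bound by CREB, was searched as TGACGTCA.
Cadps2, chr6:23839422-23839671, minus strand: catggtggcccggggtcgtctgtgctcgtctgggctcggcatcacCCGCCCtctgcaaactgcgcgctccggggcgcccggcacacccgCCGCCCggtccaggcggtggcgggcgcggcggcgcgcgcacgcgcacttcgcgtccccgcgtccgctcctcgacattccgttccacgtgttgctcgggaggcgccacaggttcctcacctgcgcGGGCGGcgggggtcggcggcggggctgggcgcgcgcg
Cadps, chr14:12823080-12823329, minus strand: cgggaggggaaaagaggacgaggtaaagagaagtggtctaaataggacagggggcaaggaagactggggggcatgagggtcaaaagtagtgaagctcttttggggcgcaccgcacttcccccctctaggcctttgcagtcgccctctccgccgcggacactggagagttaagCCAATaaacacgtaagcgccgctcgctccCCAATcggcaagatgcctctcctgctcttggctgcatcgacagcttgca
Syn2, chr6:115134652-115134901, plus strand: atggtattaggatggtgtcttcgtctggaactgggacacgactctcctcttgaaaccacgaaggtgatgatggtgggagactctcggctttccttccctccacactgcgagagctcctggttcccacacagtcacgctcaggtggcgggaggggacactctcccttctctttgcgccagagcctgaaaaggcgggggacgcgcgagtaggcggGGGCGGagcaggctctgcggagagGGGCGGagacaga
Syn1, chrX:20920919-20921168, minus strand: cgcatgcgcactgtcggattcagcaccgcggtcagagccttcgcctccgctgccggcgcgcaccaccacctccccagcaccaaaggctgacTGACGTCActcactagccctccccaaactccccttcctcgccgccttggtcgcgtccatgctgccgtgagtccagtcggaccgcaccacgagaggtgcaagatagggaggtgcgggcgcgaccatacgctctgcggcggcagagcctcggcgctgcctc
The Cadps2 window was 78.0% G and C with 3 GC boxes, and the Cadps window was 58.0% G and C with 2 CAAT boxes and no GC box. The Syn2 window held 2 GC boxes (its table lists a further start, not shown), and the Syn1 window held 1 CRE. None of the 4 windows held a TATA box. Of all 32851 windows of that table, 32.7% held a GC box, 33.8% a CAAT box, 12.4% a TATA box and 1.55% a CRE, so only the CRE is rare, and a match is a run of letters and not a bound site.

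The depth was uneven between mice. Cells of mouse B had a median of 26023 counts, and those of P1 to P3 medians from 138535 to 154262 counts. The paper describes 3 plates on 1 flow cell and the remaining plates on another, with a shorter second read, without naming the plates. Mouse B also filled 3 plates. If these are the same plates, mouse B and flow cell cannot be told apart. The part of the flow cell in depth was not tested. Counts were summed per mouse and group, levels are CPM of those sums (counts scaled to the same library total, after TMM scaling unless said otherwise), and the counts are tags of transcript ends, so a family share was not divided by length. Excitatory markers summed to between 758 and 868 CPM in both Synpr groups of every mouse. The same well barcodes were used on several plates (343 of 368), and 0 were repeated within a plate. Of the kept cells, 4 had Gad1 and Gad2 together at 1669 CPM or more, with 1 count of Slc17a7 each, while no other kept cell passed 19.1 CPM. These inhibitory-type cells lay 3 in the Synpr-high RSC cells of P1 and P3 and 1 in the unlabelled Synpr-low cells of P3, and results that rest on them are given without them too. Each plate of the projection mice held 1 mouse and 1 label, apart from plate 12 with 34 RSC and 44 LEC cells of P3, so that plate and label cannot be told apart elsewhere.

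The first comparison asked how the machinery differs between the core-like cells of the claustrum, marked by Synpr, and the other excitatory cells. Synpr itself, which splits the cells, was left out of this fit. The other 5 core-like markers were all called higher in Synpr-high cells and summed to between 4327 and 4770 CPM there and between 321 and 714 CPM in Synpr-low cells. The Synpr-low cells held the shell-like markers (782 to 2113 CPM against 61.1 to 128 CPM, 4 of 4 called lower in Synpr-high cells) and layer 6 markers (124 to 280.5 CPM against 14.3 to 33.5 CPM, 4 of 7). The paper took Gfra1 of the core-like list and Slc30a3, Nnat and Spon1 of the shell-like list from these same cells. Their calls are therefore not independent evidence of what the groups are. The comparison set the 438 cells with Synpr at 200 CPM or more (Synpr-high) against the 573 lower cells (Synpr-low). Few cells lay near that limit, 13 from 100 to under 200 CPM and 8 from 200 to under 400 CPM. Between these groups the priming factor Cadps2 and the calcium sensor Syt1 were higher in Synpr-high cells, and the synaptotagmins Syt10, Syt13 and Syt17, the synapsin Syn2, the complexin Cplx1, the vesicle GTPase Rab3b and the vesicle protein Sv2b were lower. These 9 of 42 members tested passed the edgeR threshold, 2 higher and 7 lower, against 8.81% of all 13640 genes tested (4.47% higher and 4.34% lower). Members and split were chosen with earlier results known, so that contrast is no test of the set. The median log2 fold change of the members was -0.08, and for 27 of 42 the 95% interval lay within 1 of 0. The mouse as a block, for which the sums of a mouse are pairs, gave 20 of 42 members, 7 higher and 13 lower, and 1995 genes in place of 1202. The sums of the groups did not overlap for 3 members that were higher and 10 that were lower, where 7.91% and 7.64% of all genes did so.

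**Figure D1:**
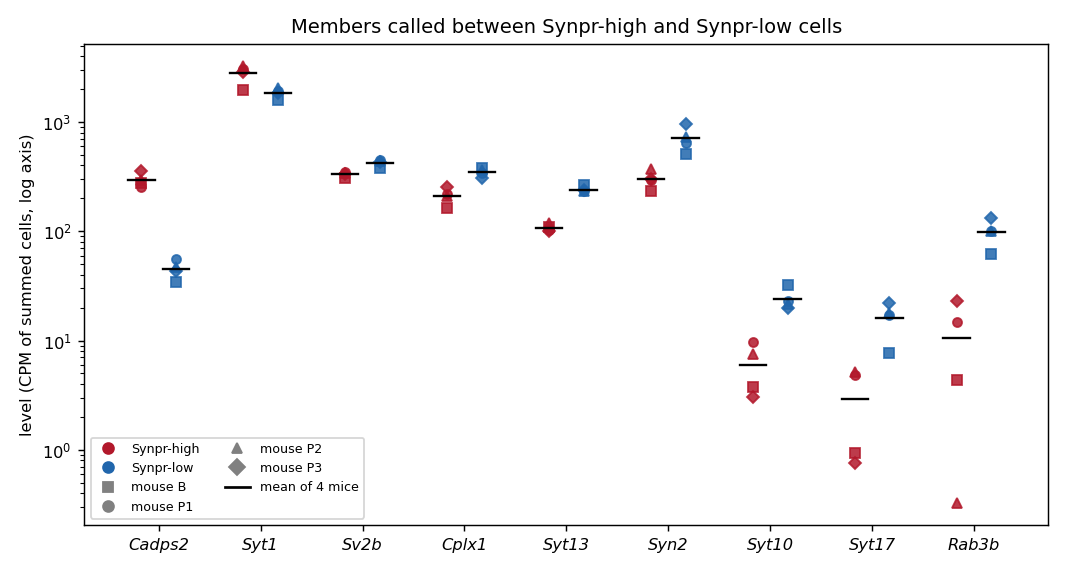
Level in CPM (log axis) of the 9 members past the edgeR threshold, in Synpr-high (red) and Synpr-low (blue) cells summed per mouse, 1 symbol for each mouse and a line at the mean of 4. Cadps2 sits between 255 and 355 CPM in Synpr-high cells and between 34.6 and 55.3 CPM in Synpr-low cells, while the Rab3b values of Synpr-high cells spread from 0.326 to 23.0 CPM.

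Of the priming factors, Cadps2 passed the test without the block. CAPS binds the SNARE complex and primes vesicles, dense-core vesicles above all. Cadps2 was at 275, 255, 293 and 355 CPM in the Synpr-high cells of B, P1, P2 and P3 and at 34.6, 55.3, 47.5 and 43.7 CPM in their Synpr-low cells. The lowest Synpr-high sum was above the highest Synpr-low sum by a wide margin. The log2 fold change was 2.70 ± 0.17 (SE, n = 4 mice, edgeR adjusted p = 1.77e-05), and the call held without any 1 mouse (adjusted p, 3.29e-05 to 0.00128). Its paralog Cadps was at 93.4 ± 8.36 CPM (SD, n = 4) and 109 ± 17.1 CPM and did not pass in edgeR (log2 fold change, -0.22 ± 0.14, adjusted p = 0.450). The leading CAPS paralog was therefore a different gene in the 2 groups. Cadps2 gave 75.8% ± 2.62 (SD, n = 4) of CAPS counts in Synpr-high cells and 29.6% ± 6.63 in Synpr-low cells, with no overlap, a description without a test of its own.

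The number of cells with Cadps2 differed as well. With every cell thinned to 20000 counts, which leaves out 32 and 52 shallower cells, 366 of 406 Synpr-high cells had a Cadps2 count (90.1%, exact 95% interval, 86.8 to 92.9) and 152 of 521 Synpr-low cells did (29.2%, 25.3 to 33.3). Cadps was found at much the same rate in both, in 61.8% and 64.9% of cells. Without thinning, Cadps2 was counted in 421 of 438 and 234 of 573 cells. These intervals cover counting error only.

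**Figure D2:**
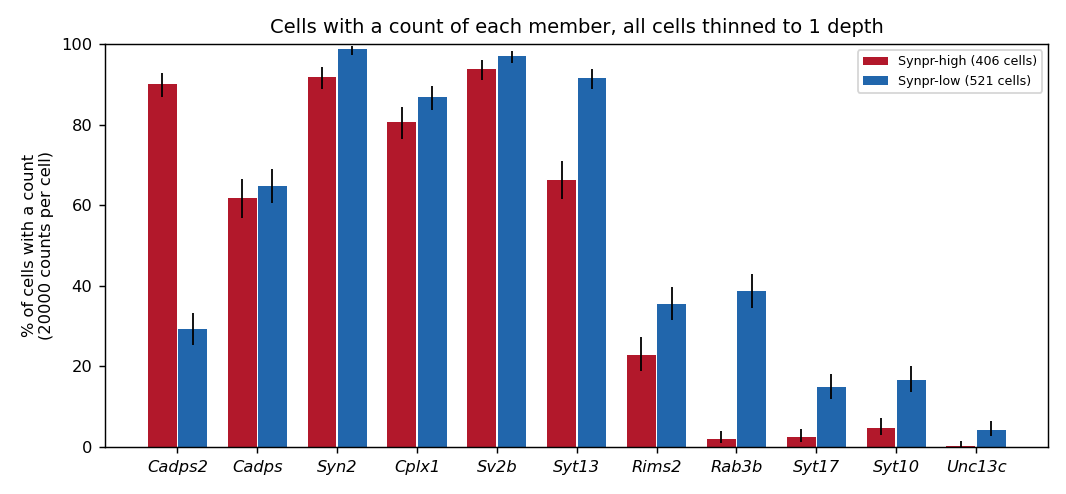
Share of cells (%) with at least 1 count of each of 11 members after thinning every cell to 20000 counts, in 406 Synpr-high (red) and 521 Synpr-low (blue) cells, with exact 95% intervals. Cadps2 is the member with the larger share in Synpr-high cells, 90.1% against 29.2%, and Rab3b is at 1.97% against 38.6%.

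Munc13 and RIM proteins open syntaxin and tether vesicles at the release site. Unc13a, which gave about 89% of Munc13 counts in both groups (89.4% and 89.2%), was at 153, 156, 148 and 128 CPM in Synpr-high cells and at 119, 107, 113 and 100.9 CPM in Synpr-low cells. Its groups did not overlap, and its adjusted p of 0.0523 did not pass in edgeR without the block, while it did with the mouse as a block (0.0141), with DESeq2 (0.0208), without mouse B (0.0446), with a Synpr limit of 400 CPM (0.0389) and without the 4 inhibitory-type cells (0.0438). Unc13c was near 0 in both groups, with 22 counts in all Synpr-high cells, 20 of them in 1 cell, and 422 counts in Synpr-low cells. Its log2 fold change of -3.70 ± 1.25 did not pass in edgeR without the block (adjusted p = 0.109) and passed with it (0.0450) and with DESeq2 (0.0139). Rims1 was at 122 ± 18.1 and 102 ± 15.3 CPM (SD, n = 4 mice), with an edgeR adjusted p of 0.437. Unc13b and Rims3 did not pass either, at 17.2 ± 2.75 and 8.92 ± 3.77 CPM and at 14.7 ± 3.98 and 8.10 ± 3.02 CPM. Rims2 was at 11.2, 39.9, 31.4 and 35.5 CPM in Synpr-high cells and at 49.4, 72.5, 58.6 and 42.9 CPM in Synpr-low cells, lower in every mouse, with an adjusted p of 0.140 and, with the block, 0.0398. As a share of RIM counts Rims2 was at 17.1% ± 5.55 and 33.4% ± 3.54 (SD, n = 4).

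Synapsins coat vesicles and hold them in clusters away from the membrane. Syn2 was at 236, 295, 372 and 300.5 CPM in the Synpr-high cells of B, P1, P2 and P3 and at 511, 642, 727 and 951 CPM in their Synpr-low cells, so that each Synpr-low sum was above every Synpr-high sum. The log2 fold change was -1.23 ± 0.19 (edgeR adjusted p = 0.00295; without 1 mouse, 0.00131 to 0.0320). Syn1 was at 511 ± 28.6 and 463 ± 30.8 CPM (SD, n = 4 mice) and did not pass (edgeR adjusted p = 0.437). Syn3, at 5.35 ± 0.95 and 10.1 ± 4.81 CPM, was lower without overlap but did not pass either (adjusted p = 0.174). The share of Syn2 in synapsin counts went from 33.2, 35.8, 41.3 and 36.1% in Synpr-high cells to 50.7, 56.4, 62.2 and 67.4% in Synpr-low cells, which made Syn2 the larger paralog in Synpr-low cells and Syn1 the larger in Synpr-high cells in all 4 mice. Nearly every cell had Syn2 at 20000 counts (91.9% and 98.7%), unlike Cadps2. Syn2 has been listed as a shell marker from these same cells, so that its direction is not independent evidence.

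**Figure D3:**
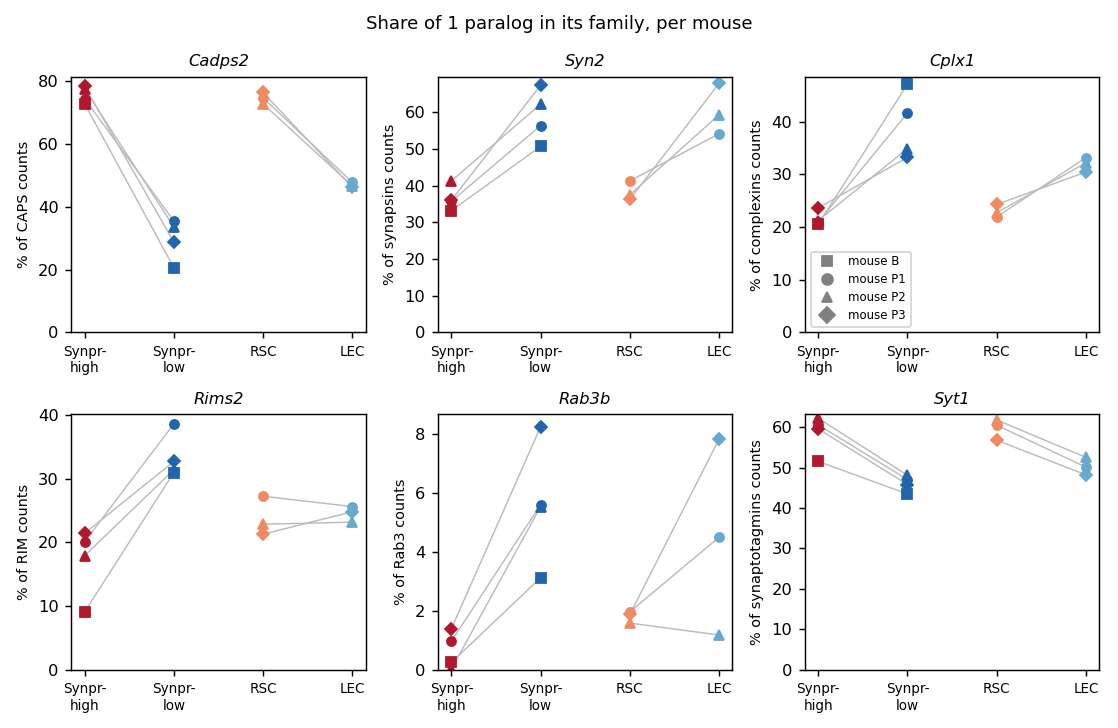
Share (%) of 1 paralog in the counts of its family for each mouse, with lines joining the groups of a mouse: Synpr-high and Synpr-low cells (4 mice) at left and RSC and LEC cells (3 mice) at right of each panel. From Synpr-high to Synpr-low cells the mean share goes from 75.8% to 29.6% for Cadps2 and from 36.6% to 59.2% for Syn2, while that of Rims2 is 17.1% and 33.4% there and 23.8% and 24.5% in RSC and LEC cells.

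Synaptotagmins are the calcium sensors of release. Syt1, the fast sensor, was at 1967, 3079.9, 3266 and 2845 CPM in Synpr-high cells and at 1607, 1926, 2046 and 1829 CPM in Synpr-low cells. It was higher in Synpr-high cells of all 4 mice, although the sums overlap, with mouse B the lowest in both groups. The log2 fold change was 0.59 ± 0.15 (edgeR adjusted p = 0.0331, with the block 0.00104), and the call ended without P1 (0.181), P2 (0.131) or P3 (0.181). Syt1 made up 58.5% ± 4.75 and 46.1% ± 1.99 (SD, n = 4) of synaptotagmin counts.

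Of the other synaptotagmins, Syt10, Syt13 and Syt17, none of them a fast sensor of synaptic release, went the other way. Syt13, which lacks the residues that bind calcium, was at 110.4, 103, 118 and 99.7 CPM in Synpr-high cells and at 263, 232, 232 and 237 CPM in Synpr-low cells, a log2 fold change of -1.16 ± 0.10 (edgeR adjusted p = 0.000128; without 1 mouse, 0.000278 to 0.00568). The spread between mice was small beside that difference. Syt10 was at 3.74, 9.75, 7.49 and 3.03 CPM against 32.4, 23.2, 21.5 and 19.7 CPM, with a log2 fold change of -1.98 ± 0.38 (adjusted p = 0.00935, and 0.0508 without P2). Syt17 was at 0.936, 4.85, 5.13 and 0.757 CPM against 7.71, 17.1, 18.05 and 22.0 CPM, with a log2 fold change of -2.43 ± 0.62 (adjusted p = 0.0372, and 0.106, 0.101 and 0.158 without P1, P2 and P3). Both were found in a minority of cells at 20000 counts: Syt10 in 4.68% of Synpr-high and 16.7% of Synpr-low cells, and Syt17 in 2.46% and 14.8%. With the block, Syt4 (log2 fold change 0.40) and Syt12 (0.57) also passed as higher, and Syt7 (-0.49) and Syt11 (-0.28) as lower. Of the rest, Syt3, Syt5, Syt9 and Syt16 passed in neither fit, and Syt2, with 7 counts in Synpr-high and 1 in Synpr-low cells of the projection mice, was not tested. Doc2 proteins sense calcium for asynchronous and spontaneous release, and Doc2a was at 114 ± 13.3 and 104 ± 22.3 CPM (SD, n = 4 mice, edgeR adjusted p = 0.788). Doc2b had 2 counts in Synpr-high cells and 60 in Synpr-low cells, a ratio of 26.3 per total count (95% counting interval, 6.98 to 222), and passed with the block and with DESeq2 but not in edgeR without the block. The counting interval takes each count as independent and leaves out the spread between cells and mice.

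Complexins bind the assembled SNARE complex. Cplx1 was at 162, 218, 212 and 252 CPM in Synpr-high cells and at 381, 339, 363 and 307 CPM in Synpr-low cells, without overlap (log2 fold change -0.72 ± 0.14, edgeR adjusted p = 0.00935). The call ended without P1 (0.0709) or P2 (0.0824). The 3 inhibitory-type cells among the Synpr-high cells held 10.2% of the Cplx1 counts of that group, and without the 4 such cells the log2 fold change was -0.80 ± 0.12 (adjusted p = 0.00225). Cplx2 was at 629, 824, 788 and 816 CPM against 428, 476, 678 and 617 CPM, higher in Synpr-high cells of every mouse, and did not pass in edgeR without the block (adjusted p = 0.0948), while it did with the block (0.00824), with DESeq2 (0.0498) and without mouse B (0.0431). Cplx1 thus gave 21.6% ± 1.40 of complexin counts in Synpr-high and 39.2% ± 6.40 (SD, n = 4) in Synpr-low cells.

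Of the core fusion proteins, none passed in edgeR without the block. Snap25 was at 5977, 4197, 3695 and 5395 CPM against 5353, 3555, 2948 and 3604 CPM, and its log2 fold change of 0.32 ± 0.20 had an adjusted p of 0.440, with the block 0.0116. Vamp2 was at 201 ± 16.1 and 209.7 ± 36.7 CPM (SD, n = 4 mice, edgeR adjusted p = 0.909). Vamp1, at 46.1 ± 5.98 and 32.0 ± 5.32 CPM, was higher without overlap and did not pass, nor did Stx1a (229 ± 23.4 and 254 ± 77.5 CPM) or the tomosyn Stxbp5l (91.2 ± 15.3 and 67.04 ± 8.42 CPM), also with the block. The separation of Vamp1 was marginal. Unscaled and without the 4 inhibitory-type cells, it was at 37.2 CPM in Synpr-high cells of P1 and at 38.8 CPM in Synpr-low cells of P2. Nsf, the ATPase that splits SNARE complexes, was at 1078 ± 247 and 982 ± 105 CPM (adjusted p = 0.761), and its adaptor Napb had a log2 fold change of -0.44 that did not pass in edgeR without the block (adjusted p = 0.0895) and passed with the block (0.000978), with DESeq2 (0.0453) and without mouse B (0.00591).

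Of the proteins carried on vesicles, Rab3b was at 4.37, 14.9, 0.326 and 23.0 CPM in Synpr-high cells and at 61.7, 99.8, 100.1 and 132 CPM in Synpr-low cells. The log2 fold change was -3.16 ± 0.81 (edgeR adjusted p = 0.0372, with the block 0.00805), and the call ended without P1 (0.151) or P3 (0.0888). The 3 inhibitory-type cells held 749 of the 928 Rab3b counts in Synpr-high cells. Without the 4 such cells the log2 fold change was -4.96 ± 0.77 (adjusted p = 0.00274). At 20000 counts Rab3b was found in 8 of 406 Synpr-high cells (1.97%, exact 95% interval, 0.854 to 3.85) and in 201 of 521 Synpr-low cells (38.6%, 34.4 to 42.9). Rab3a, the main neuronal Rab3, was at 1418 ± 108 and 1474 ± 189.7 CPM (SD, n = 4 mice, edgeR adjusted p = 0.876) and made up 84.7% and 82.0% of Rab3 counts. Rab3b was thus a small part of its family in both groups, and Rab3c, at 244 ± 10.7 and 221 ± 40.1 CPM, did not pass. Sv2b was at 307, 351, 339 and 334 CPM against 380.1, 448, 439 and 434 CPM (log2 fold change -0.35 ± 0.09, adjusted p = 0.0380), a small but complete separation whose call ended without P1 (0.176), P2 (0.190) or P3 (0.226). Sv2a was at 505 ± 59.5 and 543 ± 84.5 CPM (adjusted p = 0.785), and Sv2c, at 1.61 ± 1.32 and 4.71 ± 1.69 CPM, did not pass. The scaffolds did not pass, with Pclo at 173 ± 47.5 and 156 ± 19.4 CPM and Bsn at 219 ± 38.5 and 204 ± 32.0 CPM (adjusted p = 0.852) and a share of 56.2% and 56.6% of the Bassoon and Piccolo counts.

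Exons of Syn2 overlap Timp4, those of Rab3b overlap 8030443G20Rik and those of Sv2b overlap 1500012K07Rik on the opposite strand in the GENCODE M21 annotation. The use of strand in counting was not given in the sources used here, so reads of these pairs may not be separable. The remaining 6 called members share no exon with another gene there.

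**Figure D4:**
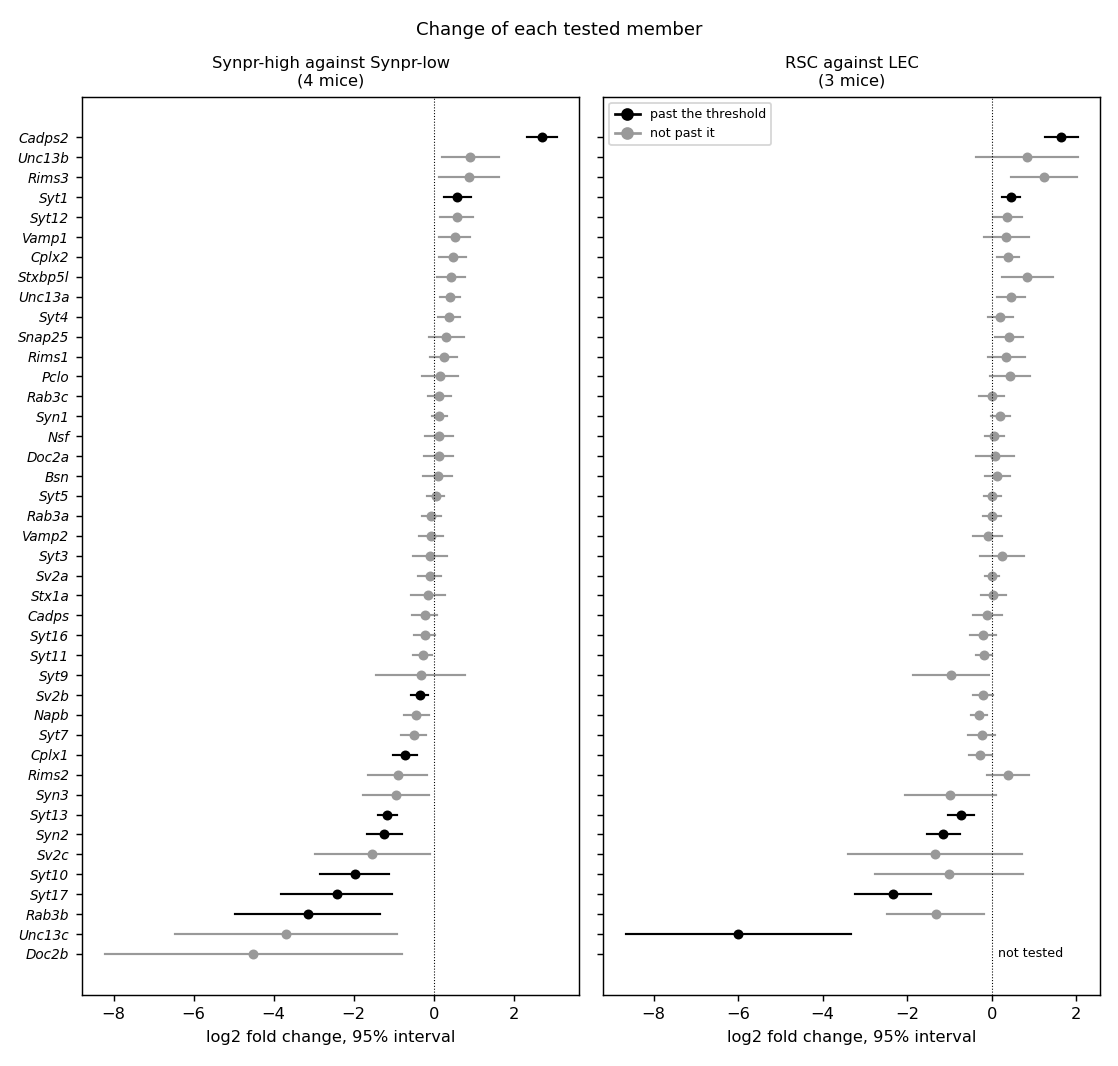
Log2 fold change with 95% interval of each tested member, Synpr-high against Synpr-low cells in 4 mice (left, 42 members) and RSC against LEC cells in 3 mice (right, 41 members), black where the edgeR adjusted p passed 0.05 and in the same order in both panels. Cadps2 is at the top of both, at 2.70 and 1.65, and for 27 of the 42 members at left the whole interval lies within 1 of 0.

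Synpr-low cells were not uniform, as the levels in cells split by label show (unscaled CPM, means of P1 to P3, no test). Among Synpr-low cells, those labelled from the LEC had Cplx1 at 315 ± 36.3 CPM and those without a label at 401 ± 29.0 CPM (SD, n = 3), without overlap. Rims2 was at 44.7 ± 8.74 and 80.4 ± 28.2 CPM, again without overlap. Unc13c went the other way, at 8.57 ± 4.55 CPM in LEC-labelled and 2.31 ± 1.55 CPM in unlabelled Synpr-low cells. The layer 6 markers summed to between 37.5 and 48.0 CPM in the former and between 230.4 and 687 CPM in the latter, and the shell-like markers to between 1539 and 2566 CPM and between 752 and 1603 CPM. The part of this cell mixture in the values above was not tested. Cadps2 was at 40.8 ± 7.64 CPM in LEC-labelled and 65.0 ± 13.8 CPM in unlabelled Synpr-low cells, without overlap, and between 282 and 312 CPM in the means of Synpr-high cells of each label. Syt13 was at 234 ± 12.99 and 259 ± 23.4 CPM, with overlap.

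Within 1 label the comparison of Synpr groups gave fewer calls. With LEC-labelled cells only, 5 of 41 members and 426 of 11759 genes passed. With RSC-labelled cells only, 2 of 39 members and 68 of 10736 genes passed, and with unlabelled cells 5 of 40 members and 600 of 11422 genes. Cadps2 was past the threshold in all 3, with log2 fold changes of 2.85, 2.25 and 2.43. Cplx1 differed by -0.31 in LEC-labelled cells (edgeR adjusted p = 0.377) and by -1.05 in unlabelled cells (0.00118).

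The second comparison asked whether cells projecting to the RSC and to the LEC differ in the machinery. Of the RSC cells 86.2% were Synpr-high (exact 95% interval, 81.3 to 90.3) and of the LEC cells 15.7% (11.7 to 20.5), so that the 2 comparisons share cells and are not independent of each other. In P1, P2 and P3 these shares were 81.25, 80.0 and 92.9% of RSC cells and 22.5, 14.5 and 12.3% of LEC cells. The intervals cover counting error over pooled cells and not the spread between mice. In RSC cells Cadps2 and Syt1 were higher and Syt13, Syt17, Syn2 and Unc13c lower. These 6 of 41 members tested passed in edgeR, 2 higher and 4 lower, against 3.83% of 13242 genes (1.93% higher and 1.9% lower). As the members were chosen with earlier results known, this contrast is no test of the set either. The sums did not overlap for 7 higher and 11 lower members, where 11.2% and 11.3% of all genes did so. With the mouse as a block 5 of the 6 called members passed and Unc13c did not (adjusted p = 0.0727), although the sums of a mouse were only weakly alike here.

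Cadps2 was at 252, 222 and 351 CPM in the RSC cells of P1, P2 and P3 and at 87.3, 88.7 and 87.3 CPM in their LEC cells (log2 fold change 1.65 ± 0.17, edgeR adjusted p = 0.00314). It held its call without any 1 mouse (0.0136 to 0.0492) and was the single member to do so. Its share of CAPS counts was 74.6% ± 1.81 in RSC and 46.9% ± 0.81 (SD, n = 3) in LEC cells. Syn2 was at 367, 338 and 304 CPM against 618, 644 and 976 CPM (log2 fold change -1.15 ± 0.17, adjusted p = 0.00993), and lost its call without P2 (0.104) or P3 (0.0696). Its RSC values varied little and its LEC values were high in P3.

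Syt1 was at 3123, 3202 and 2602 CPM in RSC cells and at 2196, 2360.0 and 1994 CPM in LEC cells, with no overlap (log2 fold change 0.45 ± 0.09, edgeR adjusted p = 0.0366), and its call ended without P1 (0.138), P2 (0.164) or P3 (0.110). Syt13 was at 115, 141 and 110.1 CPM against 184, 217 and 209 CPM (log2 fold change -0.74 ± 0.14, adjusted p = 0.0226; without 1 mouse, 0.0686 to 0.264). Syt17 was at 5.71, 2.89 and 2.85 CPM against 18.5, 16.997 and 22.5 CPM (log2 fold change -2.34 ± 0.40, adjusted p = 0.0155; 0.133 without P2 and 0.243 without P3). The synaptotagmins that passed here had all passed between the Synpr groups, whereas Syt10 did not pass, at 7.79 ± 5.88 and 15.8 ± 14.5 CPM (SD, n = 3) with overlap.

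Unc13c, a Munc13 best known from cerebellar granule cells, was at 0.308, 0 and 0 CPM in RSC cells and at 4.41, 6.31 and 11.1 CPM in LEC cells. The 4 counts of the RSC cells lay in 1 cell of P1, while the LEC cells held 378 counts in 34 of 286 cells, a ratio of 79.4 per total count (95% counting interval, 30.8 to 293). That interval takes each count as independent, which counts of the same cell are not, and leaves out the spread between cells and mice. The fitted log2 fold change of -6.00 ± 1.18 (edgeR adjusted p = 0.0267) depends on how the zeros are treated, and the call ended without P2 (0.175) or P3 (0.264). It was counted in few cells of either label, 1 of 247 RSC cells among them.

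Rab3b, Cplx1 and Sv2b passed between the Synpr groups but not here. Rab3b was at 29.5, 28.3 and 31.6 CPM in RSC cells and at 76.1, 20.8 and 128 CPM in LEC cells, where P2 fell below all RSC sums (log2 fold change -1.33 ± 0.51, edgeR adjusted p = 0.233). The 3 inhibitory-type cells held 62.5% of the Rab3b counts of RSC cells. Without them the log2 fold change was -2.28 and the adjusted p 0.327. Of the 13 alternative fits, 12 did not call Rab3b. The inhibitory marker list moved with the label: its 6 counted genes summed to between 6.92 and 201 CPM in RSC sums and to at most 0.962 CPM in LEC sums, where Gad1, Gad2 and Sst were at 0. Cplx1 was at 247 ± 22.3 and 297 ± 32.2 CPM (SD, n = 3 mice, edgeR adjusted p = 0.315), lower in RSC cells without overlap. That separation was marginal, as scaling with the unlabelled sums put P3 RSC cells at 268.2 CPM and P1 LEC cells at 267.2 CPM. The inhibitory-type cells held 14.4% of the Cplx1 counts of RSC cells. Without them Cplx1 was at 219 ± 9.47 and 300 ± 32.2 CPM (unscaled), and it passed in none of the 13 alternative fits.

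On plate 12, where both labels of P3 shared a plate, RSC and LEC cells gave 317 and 95.6 CPM of Cadps2, 322 and 869.5 CPM of Syn2, 3015 and 2211 CPM of Syt1, 104.8 and 211 CPM of Syt13, and 2.98 and 11.2 CPM of Syt17 (unscaled, 1 mouse, no test). Unc13c was at 0 and 16.9 CPM there. All 6 called members lay in the same order on that plate as in the sums. Without plate 12, 5 of the 6 passed and Syt1 did not (adjusted p = 0.136).

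Cells of the 2 targets were then compared within Synpr-high cells alone, 213 RSC and 45 LEC cells of the 3 projection mice. No member of 38 tested passed in edgeR, and no gene of 11330 (0%) did either. At an unadjusted p under 0.05 there were 472 genes and 1 member, and DESeq2 called 9 genes and 0 members. The LEC sums rest on 18, 11 and 16 cells, which limits what can be seen. For 27 of the 38 members the 95% interval of the log2 fold change lay within 1 of 0.

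Cadps2 in these cells was at 276, 261 and 359 CPM in RSC and at 188, 289.5 and 379.9 CPM in LEC cells, and the groups overlapped. The log2 fold change was 0.07, with an interval of -0.49 to 0.62 that does not reach the 1.65 seen over all cells. For Syt13 it was 0.09 (-0.33 to 0.51), for Syn2 -0.22 (-0.66 to 0.21) and for Syt1 0.00 (-0.23 to 0.24), and each of these intervals leaves out the value found over all cells. Syt17 had an interval of -3.52 to 1.99, too wide to tell. These intervals are for Synpr-high cells only. Among Synpr-low cells, Cadps2 was at 63.8 ± 8.94 CPM in RSC and 40.8 ± 7.64 CPM in LEC cells (SD, n = 3). Those Cadps2 sums did not overlap between labels, while the sums of Syt1, Syt13 and Syn2 did (unscaled, no test). The Synpr-low cells of the 2 labels also differed in markers. Core-like markers, Synpr among them, summed to between 936 and 2003 CPM in RSC and between 243 and 519 CPM in LEC cells. Shell-like markers summed to between 980 and 1134 CPM and between 1539 and 2566 CPM. The part of this difference in the Cadps2 values was not tested. The RSC sums of Synpr-low cells rest on 12, 14 and 8 cells of P1, P2 and P3. Whether the difference between labels itself differed between Synpr-high and Synpr-low cells was tested as an interaction, which called 8 of 12410 genes and 0 of 41 members (lowest edgeR adjusted p of a member, 0.306), too few calls over all genes to read anything of the members from it.

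**Figure D5:**
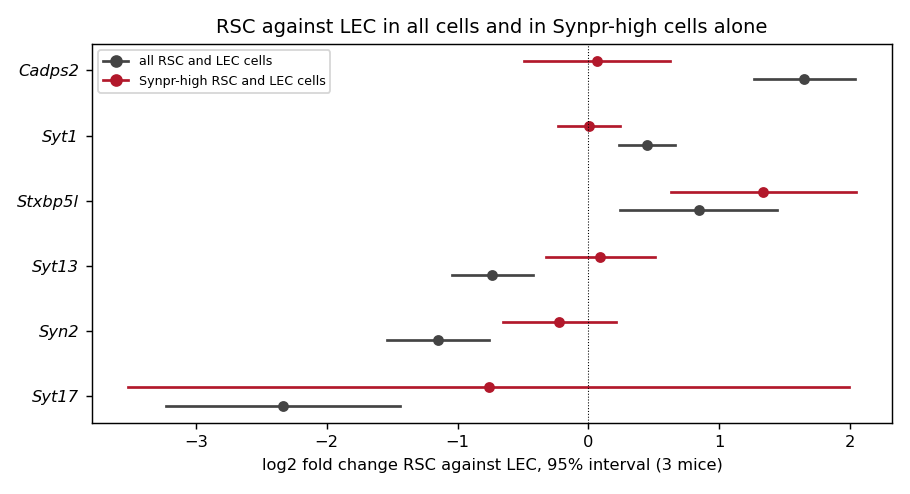
Log2 fold change with 95% interval, RSC against LEC, over all RSC and LEC cells (dark) and over Synpr-high cells alone (red) for 6 members in 3 mice. Cadps2, Syt1, Syt13 and Syn2 lie near 0 in Synpr-high cells, while Stxbp5l is at 0.84 and 1.34.

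Stxbp5l, a tomosyn that takes up syntaxin and SNAP-25 and so restrains release, was the member with the lowest unadjusted p in Synpr-high cells and was singled out after its values were seen. It was at 109, 130.4 and 72.4 CPM in RSC cells and at 46.0, 49.4 and 27.9 CPM in LEC cells, with no overlap (log2 fold change 1.34, interval 0.63 to 2.04), but its adjusted p was 0.734. Over all cells it was at 103, 118 and 74.5 CPM against 38.7, 75.1 and 51.1 CPM (adjusted p = 0.136), and on plate 12 at 101.5 and 38.8 CPM. Of all genes tested in Synpr-high cells, 7.03% were higher and 4.93% lower without overlap, and of the 38 members 2 and 2 were.

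Genes that work beside the members were read from 3 lists. Of 33 tested genes of 41 other exocytosis genes, 1 was higher and 2 were lower in Synpr-high cells (3 and 3 with the mouse as a block), a share near the 8.81% of all genes. The higher one was Napa, the SNAP adaptor related to Napb, at 789 ± 34.6 and 616 ± 54.1 CPM (log2 fold change 0.36, edgeR adjusted p = 0.0300). Lower were Stxbp2, a Munc18 protein, at 26.1 ± 6.20 and 59.9 ± 19.2 CPM (-1.19, 0.0148), and Cplx3, a complexin also known from deep layer 6, at 5.30, 4.95, 2.61 and 2.88 CPM against 437, 21.2, 79.8 and 9.36 CPM (0.0175), where mouse B stood far above the others.

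Of 16 vesicle membrane proteins, all tested, 2 were higher and 2 lower in Synpr-high cells (3 and 3 with the block), against 4.47% and 4.34% of all genes. Synaptogyrins were split, with Syngr3 at 797 ± 51.4 and 559 ± 70.7 CPM (SD, n = 4, edgeR adjusted p = 0.0124) and Syngr1 at 217 ± 8.27 and 316 ± 28.6 CPM (0.00640), and so were the proton pump subunits Atp6v1h (log2 fold change 0.78, 0.0435) and Atp6v1b2 (-0.41, 0.0205). Of 22 tested endocytosis genes 3 were higher and 0 lower, against the same shares of all genes. With the block 4 were higher and 3 lower, so the count did not keep to 1 direction. Synj1, the phosphatase that uncoats vesicles, was at 586, 535, 532 and 539 CPM against 274, 265, 268 and 271 CPM, with little spread between mice beside the difference (log2 fold change 1.02 ± 0.08, adjusted p = 5.17e-05). Bin1 (0.62, adjusted p = 0.00816) and Sh3gl2, endophilin A1 (0.41, 0.0372), were the others. Without 1 of the mice P1, P2 or P3 each of these calls but that of Synj1 ended at least once, with adjusted p up to 0.218 (Atp6v1h without P3), while Synj1 stayed past the threshold (at most 0.00366).

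Between RSC and LEC cells, Synj1 (log2 fold change 0.78, edgeR adjusted p = 0.00461) and Syngr3 (0.52, 0.0229) were higher in RSC cells, and Stxbp2 (-1.22, 0.0391), Atp6v1a (-0.42, 0.0457) and Amph (-0.62, 0.0240) were lower. With the block Stxbp2 (0.0577), Atp6v1a (0.0576) and Amph (0.0525) did not pass, and each of the 5 calls ended without P2 or P3. These were 0 higher and 1 lower of 32 exocytosis genes, 1 and 1 of 16 membrane proteins, and 1 and 1 of 22 endocytosis genes. Of all genes tested, 1.93% were called higher and 1.9% lower. Within Synpr-high cells 0 of the 29, 14 and 22 tested genes of these lists passed.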

How the data were processed

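Single neurons were picked by hand from the claustrum of 4 mice, and the counts per gene and cell are those the authors deposited, not normalized, from 3′-end tagged libraries aligned with STAR (labels: build NCBIM37, Seurat). Reads were tagged with cell barcodes and molecular identifiers (UMIs), but whether reads of 1 UMI were collapsed is not given in the sources used here, so a count may be a read or a molecule. Intervals cover counting error only, and would be too narrow for reads. Members, lists and the split by Synpr were chosen with earlier results of these data known. Cells in which Snap25 and Slc17a7 had at least 1 count were summed per mouse and group, leaving out sums of fewer than 5 cells. Sums were compared with edgeR 4.0.16 (quasi-likelihood test, TMM, filterByExpr, Benjamini-Hochberg over all genes tested, threshold 0.05), and with DESeq2 1.42.0 as an alternative. The 95% intervals of shares are exact (Clopper-Pearson). Each mouse gives 1 sum to either group, which pairs them, and the correlation of the paired deviations was 0.147 to 0.529 between the Synpr groups, 0.029 to 0.069 between RSC and LEC cells and 0.016 to 0.045 within Synpr-high cells, so blocked values are printed where they change a call. With 3 or 4 mice, p-values rest on the spread between those mice. Tested on simulated data made for the Synpr comparison, 68% of genes changed 4-fold and 21% of those changed 2-fold were recovered over 13640 genes. For RSC against LEC over 13242 genes these were 63% and 40%, and within Synpr-high cells over 11330 genes 55% and 14%. The simulated sums were drawn independently, with no mouse effect shared between paired sums, and the rates are over genes of all levels. They are therefore no measure for the paired data or for the members. The named genes were the members called, the largest member of each family and the called genes of the other lists. Alternatives were the tool, scaling, filters, Synpr limit, thinning, labels, and leaving out a mouse. Added after seeing the data were fits of LEC-labelled or RSC-labelled cells alone, without plate 12, and without the 4 inhibitory-type cells.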

Additional observations from a re-analysis of the deposited data

Results flagged for a closer look

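Among 84 groups of 4 sums of a member, 1 mouse stood apart by Dixon's test in 7, where chance flags about 1 in 20. All 7 lay in Synpr-high sums, which were fewer than 84, so the rate there was above 7 in 84. In mouse P2 these were Syt4 at 350.2 CPM, Syt5 at 563 CPM and Syt7 at 71.7 CPM. In mouse B, whose cells had the fewest counts, they were Syn1 at 468 CPM, Bsn at 161 CPM and Doc2b at 0.624 CPM, the last from 2 counts. In mouse P1 it was Unc13c at 1.09 CPM, where 1 cell held all 20 counts. The causes were not tested.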

How the results depend on the processing

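Between the Synpr groups, the mouse as a replicate block gave 1995 genes and 20 members, DESeq2 gave 1796 genes and 17 members, and leaving out 1 mouse gave 544 to 1581 genes and 4 to 14 members, the most without B. Unlabelled, LEC-labelled and RSC-labelled cells alone gave 600, 426 and 68 genes and 5, 5 and 2 members, and RSC-labelled cells alone turned Syt12 to -0.11 and Cplx2 to -0.15 (log2 fold change). Between RSC and LEC cells, DESeq2 gave 1121 genes and 11 members, thinning 823 genes, and leaving out 1 mouse 21 to 344 genes and 1 to 4 members. Within Synpr-high cells DESeq2 called 9 genes, and leaving out 1 mouse 0 to 1. There, where no member was called, signs turned for Syt1 (-0.0198 with DESeq2, -0.0198 with RLE size factors, -0.0041 with the replicate block, -0.0072 without plate 12, -0.0772 to 0.15 without 1 mouse), for Syt13 (-0.0919 thinned) and, without plate 12, for Syn2 (0.0404), Cadps2 (-0.26) and Cplx1 (0.0137). Without 1 mouse Syn2 ranged from -0.41 to 0.10, Cadps2 from -0.11 to 0.18 and Syt17 from -0.91 to 0.71. Of the other fold changes between the Synpr groups 383 kept their side of the threshold, 84 lost and 29 gained the call. Between RSC and LEC cells 133 kept it, 34 lost and 1 gained it. Fits without a mouse have fewer samples, and the other causes were not tested.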
